A study of Rattus norvegicus with 132 samples.

Results

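Kl, the gene of the transmembrane protein klotho, and Slc34a1, the gene of a sodium-phosphate cotransporter of the proximal tubule, were followed through rat kidney as 2 of the 9271 genes measured. They were taken by name (gene IDs 83504 and 25548 in RefSeq), by a rule that uses no measured value. The choice was nevertheless made with earlier results of these data known. Expression was profiled with the GeoMx spatial platform, in which light cuts the barcodes off probes bound within a region of interest (ROI) of a tissue section, and sequencing counts them. ROIs were picked by hand in cortex, corticomedullary junction, glomeruli and medulla of paraffin-embedded kidneys from 4 groups of 3 rats: Sham, RM, HS and RM-HS, the last with both injuries by its name. The series concerns acute kidney injury after trauma, and the labels do not expand RM or HS. Strain, sex, age and the time after injury are not given in the sources used here. The probes were those of the mouse transcriptome, hybridised to rat tissue, so that a level depends on how well each mouse probe binds its rat transcript, and the signals of the 2 genes are not compared with each other.

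Sham had 9 ROIs in each area. RM had 9 cortical, 8 junctional, 8 glomerular and 9 medullary ROIs. In that order the numbers were 9, 9, 5 and 6 for HS and 9, 8, 6 and 9 for RM-HS. The labels do not tie ROIs to rats. As many as 9 ROIs per group and area were cut from 3 animals, so that some share an animal and every p-value over ROIs in this text is too small. Well positions were used to put the ROIs into 12 runs of wells, 3 for each group, numbered here by their order. The wells of RM-HS run 3 were not consecutive. Its medullary wells directly followed RM-HS run 2 and were parted from its other wells by Sham run 1, so that their place in run 3 is an assumption. A run is not stated to be an animal. All HS ROIs lay on plate E together with Sham run 3 (12 Sham ROIs), and the other ROIs in the model lay on plate C, so that HS was separated from plate through that Sham run alone. A further RM glomerular ROI on plate A was left out of the model, with a signal of 77.5 for Kl and 45.2 for Slc34a1. Cortical ROIs had a median of 819487 reads, junctional ones 1144390, glomerular ones 95876.5 and medullary ones 1309721. Area labels were borne out by marker sums in Sham: 5 measured podocyte genes summed to 343 to 1250 in glomeruli against 170 to 229 in cortex, and 6 loop of Henle genes to 1534 to 3562 in medulla against 347 to 789 in cortex. No measured marker was at 0 in any ROI.

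Klotho is the co-receptor that lets fibroblast growth factor 23 (FGF23), a hormone of bone, bind its receptor in the kidney, and its ectodomain, cut off by ADAM proteases, also circulates. It is made mainly in the distal convoluted tubule and, at a lower level, in the proximal tubule. Slc34a1 encodes NaPi-IIa, which takes phosphate back from the filtrate across the brush border of the proximal tubule, and FGF23 and parathyroid hormone (PTH) both lower its amount at the membrane. Klotho is known to fall in several forms of acute kidney injury.

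The 250 bases before each annotated start are shown because the signals of both genes varied together in cortex, as described further on, and the sequences let a reader see how differently the promoters are built. They come from RefSeq on the rat assembly GRCr8, read 5′ to 3′ on the strand of the gene. Capitals mark GGGCGG, the GC box, in Kl, and TATAAA, the TATA box, and GTTAAT, a core of the site of the hepatocyte nuclear factor HNF1, in Slc34a1, on either strand. Kl lies on the plus strand at chr12:5325753-5326002 and Slc34a1 on the minus strand at chr17:9238984-9239233.
Kl: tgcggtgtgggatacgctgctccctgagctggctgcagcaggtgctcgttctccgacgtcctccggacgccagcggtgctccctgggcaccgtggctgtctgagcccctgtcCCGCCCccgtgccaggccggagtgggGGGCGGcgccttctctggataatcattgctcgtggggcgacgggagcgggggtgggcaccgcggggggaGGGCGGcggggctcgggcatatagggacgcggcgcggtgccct
Slc34a1: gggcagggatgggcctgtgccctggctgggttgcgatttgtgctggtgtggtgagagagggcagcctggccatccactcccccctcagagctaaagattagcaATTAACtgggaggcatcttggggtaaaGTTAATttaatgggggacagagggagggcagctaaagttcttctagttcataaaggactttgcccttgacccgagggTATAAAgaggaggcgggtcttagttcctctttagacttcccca
The Kl promoter had 73.2% G and C, and 4.89% of 33469 rat promoters of the same length had as much or more. It held GGGCGG at 112 to 107 and 43 to 38 bases before the start and, on the opposite strand, at 138 to 133. That motif occurred in 30.5% of all promoters. The Slc34a1 promoter had 53.2% G and C, near the median of 51.2%. It held TATAAA at 43 to 38 bases before the start, a motif of 12.9% of promoters, and GTTAAT at 120 to 115 and, on the opposite strand, at 147 to 142, a motif of 6.45%. CCAAT (34.0% of promoters) and AGGTCA (14.1%) were also searched on both strands and matched neither window. These matches describe letters and are not evidence of binding. Any part of the promoters in the shared variation in cortex was not tested.

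Values below are signal scaled by the authors so that the 75th percentile of every ROI was the same, 58.2, and differences are limma log2 differences ± SE of log2(signal + 1). A result was called at an adjusted p under 0.05, two-sided, over 8827 genes. Counts of ROIs above a Sham mean use the mean of log2(signal + 1) of the Sham ROIs in that area, not their mean signal. The negative probe, which has no target, had a median of 27.28 over cortical, 22.04 over junctional, 17.21 over glomerular and 19.55 over medullary ROIs. Kl was over 2 times the negative probe of its ROI in 128 of 131 ROIs, the others being glomerular, and in 1 HS and 1 Sham glomerular ROI it rested on 1 read and lay at 0.540 and 0.940 times the negative probe. Slc34a1 was over that limit in 128 of 131, the others being medullary.

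In Sham kidney Kl was highest in cortex. Its signal there was 99.2, 153 and 216 (lowest, median and highest of 9 ROIs; mean 148 ± 42.7 SD). At the junction it was 70.0, 84.6 and 98.4 (85.1 ± 8.95), in medulla 66.6, 97.2 and 126 (93.5 ± 20.9) and in glomeruli 29.1, 54.0 and 81.4 (54.3 ± 14.3). Every cortical Sham ROI thus lay above every junctional and every glomerular one, while cortex and medulla overlapped. The share of all genes whose ROIs separate in this way was not counted. Against cortex, Kl was lower at the junction by a log2 difference of -0.75 ± 0.18 (limma adjusted p = 0.00115), in medulla by -0.64 ± 0.18 (adjusted p = 0.00703) and in glomeruli by -1.42 ± 0.18 (adjusted p = 6.48e-11). Of all genes tested, 7.91%, 11.7% and 38.4% were called in these 3 comparisons, and the median gene lay at -0.27 in glomeruli, so that Kl stood at -1.16 from the median gene there. Junction and medulla did not differ beyond error (0.11 ± 0.18, 95% interval -0.24 to 0.46; 10.7% of genes called). The junction and medulla calls rested on Sham run 3: without it they were -0.52 (adjusted p = 0.196) and -0.57 (adjusted p = 0.0930), and without Sham run 2 medulla had an adjusted p of 0.0724. Both calls were also lost with the negative probe subtracted (adjusted p = 0.120 and 0.199) and with a single mean per run and area over all groups (0.224 and 0.291). Within runs, mean Kl was lower at the junction and in medulla than in cortex in 3 of 3 Sham runs (medulla 70.4, 97.0 and 113 against 101, 150 and 194), and with the Sham run means paired by run both were called (adjusted p = 0.0209 and 0.0467).

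Slc34a1 in Sham was high in cortex and at the junction and low in medulla. Cortical ROIs held a signal of 142, 214 and 681 (289 ± 178) and junctional ones 163, 238 and 286 (230 ± 41.9). It was 34.9, 77.5 and 116 in glomeruli (79.6 ± 23.2) and 42.9, 54.5 and 66.5 in medulla (54.3 ± 8.69). All cortical and junctional ROIs lay above all glomerular and medullary ones, and cortex and junction overlapped widely. For how many of all genes the ROIs separate so was not counted. Against cortex, 38.4% of genes were called in glomeruli and 11.7% in medulla. Glomeruli lay at -1.71 ± 0.20 from cortex (limma adjusted p = 4.42e-12; -1.44 from the median gene) and medulla at -2.21 ± 0.20 (adjusted p = 4.46e-18). Junction and cortex did not differ beyond error in Sham (-0.15 ± 0.20, 95% interval -0.55 to 0.25, adjusted p = 0.762). Without Sham run 3 that difference was 0.17, and under quantile normalization it was -0.77 and called (adjusted p = 2.32e-04). Medulla lay below glomeruli by a log2 difference of -0.49 ± 0.20 (adjusted p = 0.0489; 30.6% of genes were called there), a call lost in 12 of 21 alternative settings, with -0.22 (adjusted p = 0.569) without Sham run 3.

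The Sham areas differed in the same tests for other transport genes. Slc34a3, of the related cotransporter NaPi-IIc, was lower than cortex at the junction (-1.12 ± 0.19, limma adjusted p = 1.68e-06), in medulla (-1.16 ± 0.19) and in glomeruli (-0.86 ± 0.19). Slc34a2, of NaPi-IIb, was lower in glomeruli alone of those 3 areas (-0.71 ± 0.20), with 0.17 at the junction and -0.19 in medulla. Under quantile normalization, which takes out the shift of all genes, the glomerular value of Slc34a2 was 0.12 and that of Xpr1 0.05, both above 0. Among 18 tested genes of the convoluted proximal tubule, 17 were lower in glomeruli and 13 lower and 2 higher in medulla than in cortex, with list medians of -1.27 and -1.43, where 35.6% of all genes were lower in glomeruli and 5.28% lower and 6.39% higher in medulla. At the junction 7 were lower and 3 higher, while 4 of 7 genes of the straight proximal tubule were higher (list median 2.67) and none passed as lower, against 0.963% of genes lower and 6.94% higher. All 7 tested genes of the distal and connecting tubule were lower in glomeruli (5 called and 1 above 0 under quantile normalization), 3 were lower at the junction, and 3 were lower and 1 higher in medulla. In each area a lower signal per ROI can come from fewer tubule cells in the chosen region or from less RNA per cell, which cannot be told apart in these regions of mixed cells.

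In RM kidney, Kl rose in cortex. Its cortical signal was 185, 298 and 342 (lowest, median and highest of 9 ROIs; mean 289 ± 50.3) against 99.2, 153 and 216 in Sham. Of the RM ROIs, 9 of 9 lay above the Sham mean, although the lowest of them overlapped the highest Sham ROIs. By well run the RM means were 270, 267 and 330, and the Sham means 101, 150 and 194, so that the run means did not overlap, which held upwards for 12.5% of all genes in this comparison. The log2 difference was 1.08 ± 0.23 (limma adjusted p = 2.97e-04, 95% interval 0.63 to 1.53), or 2.11-fold, and 5.49% of genes were called. Of those called, 95.9% were higher, and 68.1% under quantile normalization. The call was lost without Sham run 1, the lowest Sham run (0.79, adjusted p = 0.217), with the negative probe subtracted (1.17, adjusted p = 0.0747) and with a single mean per run and area (1.08, adjusted p = 0.115). Under quantile normalization the difference was 0.54 (adjusted p = 0.0172), and on plate C alone, where RM shares its plate with 2 Sham runs, it was 1.21 (adjusted p = 3.09e-10).

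**Figure D1:**
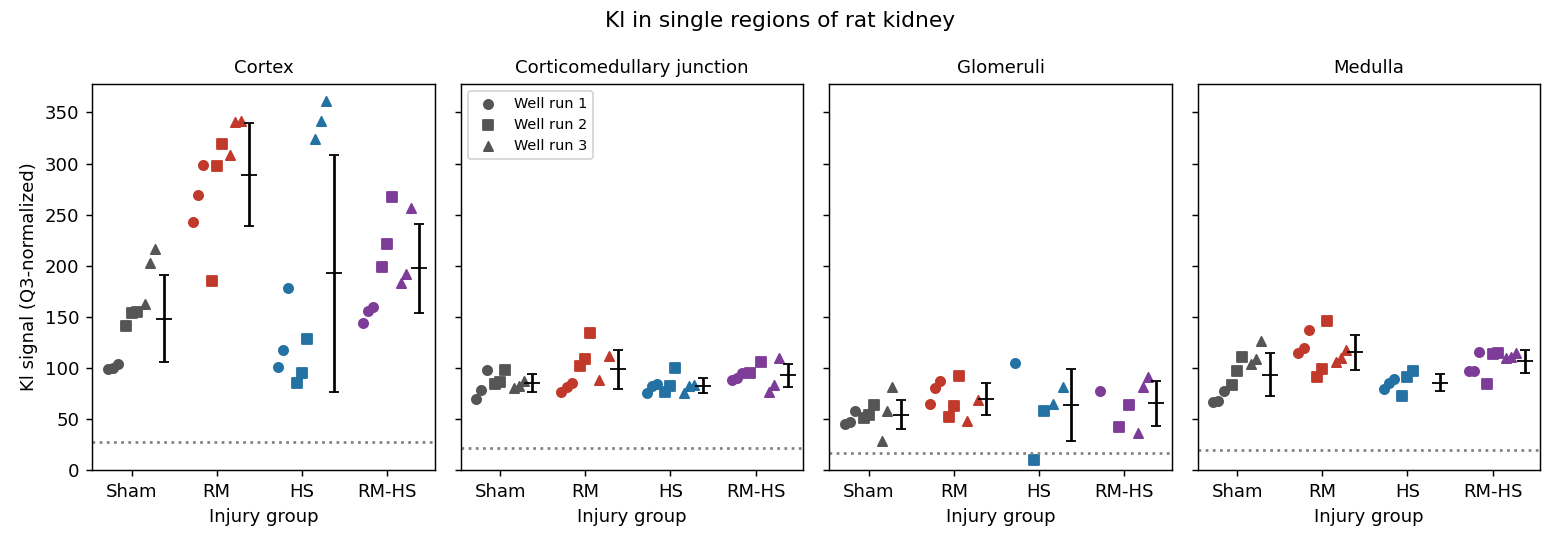
Kl signal (Q3-normalized, linear axis) of single ROIs in 4 kidney areas, by injury group; symbols give the well run, the black bar the mean ± SD of ROIs, and the dotted line the median negative probe of the area. RM cortex (289 ± 50.3) stands above Sham cortex (148 ± 42.7), and HS run 3 stands above the other HS runs in cortex.

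Outside cortex, Kl was not called in RM with all areas in the model. Its signal was 76.4, 94.9 and 134 at the junction (98.5 ± 19.4, n = 8), 47.9, 66.5 and 91.8 in glomeruli (69.5 ± 15.9, n = 8) and 91.1, 115 and 146 in medulla (115 ± 17.3, n = 9). Each of these ranges overlapped that of Sham. The log2 differences from Sham were 0.28 ± 0.23 for the junction, 0.45 ± 0.23 for glomeruli and 0.41 ± 0.23 for medulla, with limma adjusted p of 0.570, 0.202 and 0.477, where 5.64%, 12.8% and 5.96% of genes were called. Kl in medulla was called with each area fitted on its own (0.47, adjusted p = 0.00420) and on plate C alone (0.47, adjusted p = 0.0281). In glomeruli the 3 RM run means (58.2 to 77.6) lay above the 3 Sham run means (50.5 to 56.3), as they did for 10.4% of genes. Averaged over the 4 areas, Kl rose by 0.55 ± 0.17 (adjusted p = 0.0189), and 29 of 34 ROIs exceeded the mean of Sham ROIs from the same area. In that average 8.3% of genes were called, 90.6% of them higher (63.1% under quantile normalization). That average call was lost when any single RM run was left out (adjusted p = 0.0666, 0.0841 and 0.0717), without Sham run 1 (0.39, adjusted p = 0.694), with the negative probe subtracted (adjusted p = 0.0892) and with run means (adjusted p = 0.217). Under quantile normalization the average was 0.31 (adjusted p = 0.0495). Whether the RM effect on Kl differed between areas did not pass the F test (adjusted p = 0.0815; 9.72% of genes called), and cortex is therefore not shown to differ from the other areas. That test passed without HS run 2 (adjusted p = 0.0129), HS run 3 (0.0413) or Sham run 3 (0.0295), and with a pseudocount of 5 (0.0492).

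Slc34a1 was not called in RM in any area. Its cortical signal was 219, 406 and 527 (401 ± 115) against 142, 214 and 681 in Sham, and 7 of 9 ROIs lay above the Sham mean. The log2 difference was 0.76 ± 0.26 (limma adjusted p = 0.0631, 95% interval 0.25 to 1.26). This value depended on the scaling and on the Sham plate: it was 0.07 under quantile normalization, 1.06 and called on plate C alone, and 0.38 without Sham run 1. It was also called without HS run 2 (adjusted p = 0.0282), HS run 3 (0.00317) or Sham run 3 (0.00319), without the block (0.0302) and with the filter at 50% of ROIs (0.0434). At the junction the RM signal was 150, 170 and 215 (171 ± 20.3, n = 8) against 163, 238 and 286 in Sham, with 0 of 8 ROIs above the Sham mean. Run means at the junction were 155, 187 and 174 in RM and 194, 225 and 271 in Sham and did not overlap, which held downwards for 21.9% of genes. The log2 difference there was -0.27 ± 0.26 (adjusted p = 0.619) and, under quantile normalization, -0.60 (adjusted p = 0.0455). In glomeruli the signal was 64.3, 99.4 and 158 (106 ± 35.0, n = 8; difference 0.55 ± 0.26, adjusted p = 0.159, and 0.0350 without HS run 3 and 0.0270 on plate C alone). In medulla it was 39.8, 49.3 and 68.1 (50.9 ± 7.91; difference 0.06 ± 0.26, adjusted p = 0.957). The average over areas was 0.27 ± 0.19 (adjusted p = 0.412) and, under quantile normalization, -0.03.

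**Figure D2:**
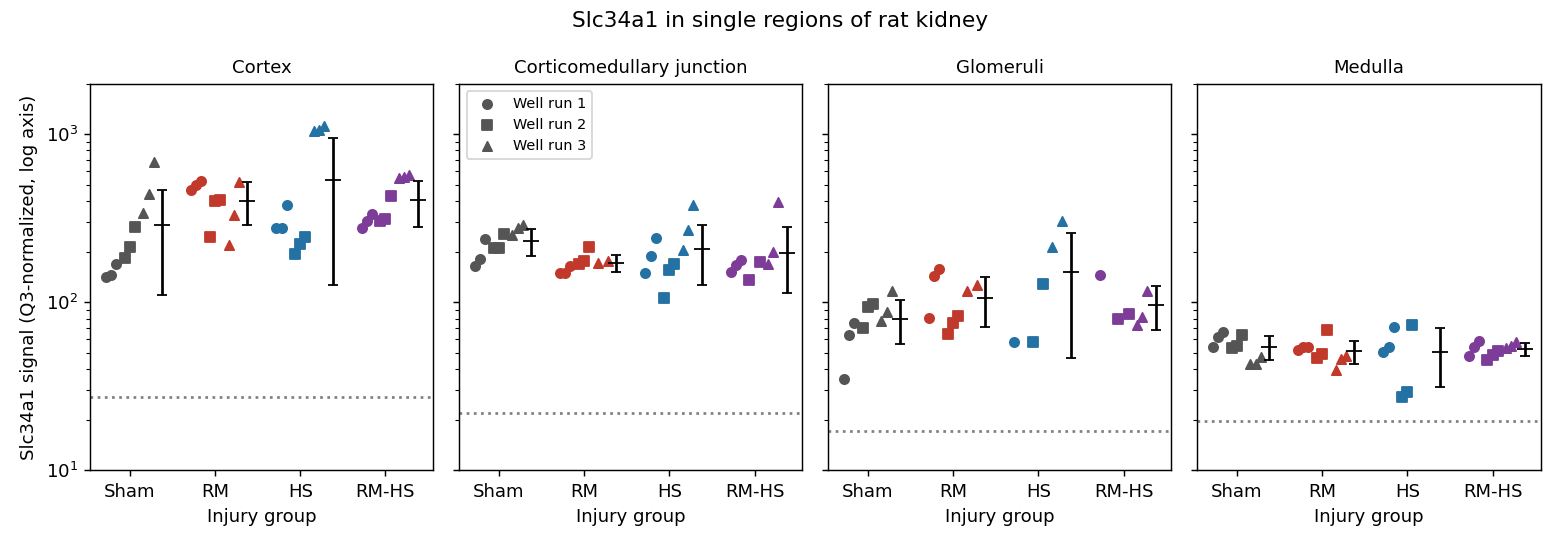
Slc34a1 signal (Q3-normalized, log axis) of single ROIs in 4 kidney areas, by injury group, with symbols, bars (mean ± SD) and dotted line (median negative probe) as for Kl. Medulla stays near 50 in all groups, junction ROIs of RM lie low, and the 3 cortical ROIs of HS run 3 lie at 1050 to 1124.

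The RM effect on Slc34a1 differed between areas by the F test (limma adjusted p = 0.0274). No single area differed from cortex beyond the threshold: the junction effect minus the cortex effect was -1.02 ± 0.29 (adjusted p = 0.0596), the medulla effect minus it -0.70 ± 0.28 (adjusted p = 0.253) and the glomerular effect minus it -0.21 ± 0.29 (adjusted p = 0.771), where 0.793%, 2.98% and 2.99% of genes were called. In RM kidney the junction lay below cortex by -1.17 ± 0.21 (adjusted p = 4.02e-06; 8.37% of genes called). The same gap was -1.10 ± 0.20 in HS (adjusted p = 9.13e-06; 9.03% called) and -1.07 ± 0.21 in RM-HS (adjusted p = 2.23e-05; 9.6% called), and -0.15 ± 0.20 in Sham. Each gap is taken within its own group, while the RM, HS and RM-HS effects against Sham share the Sham samples. By run, mean Slc34a1 in HS was 311, 220 and 1078 in cortex and 193, 144 and 284 at the junction. The F test was lost without RM run 1 (adjusted p = 0.439), RM run 3 (0.0654), Sham run 1 (0.268) or Sham run 2 (0.0922), without the run block (0.111) and with run means (0.875). Under quantile normalization the Sham gap was -0.77 and the RM gap -1.45.

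**Figure D3:**
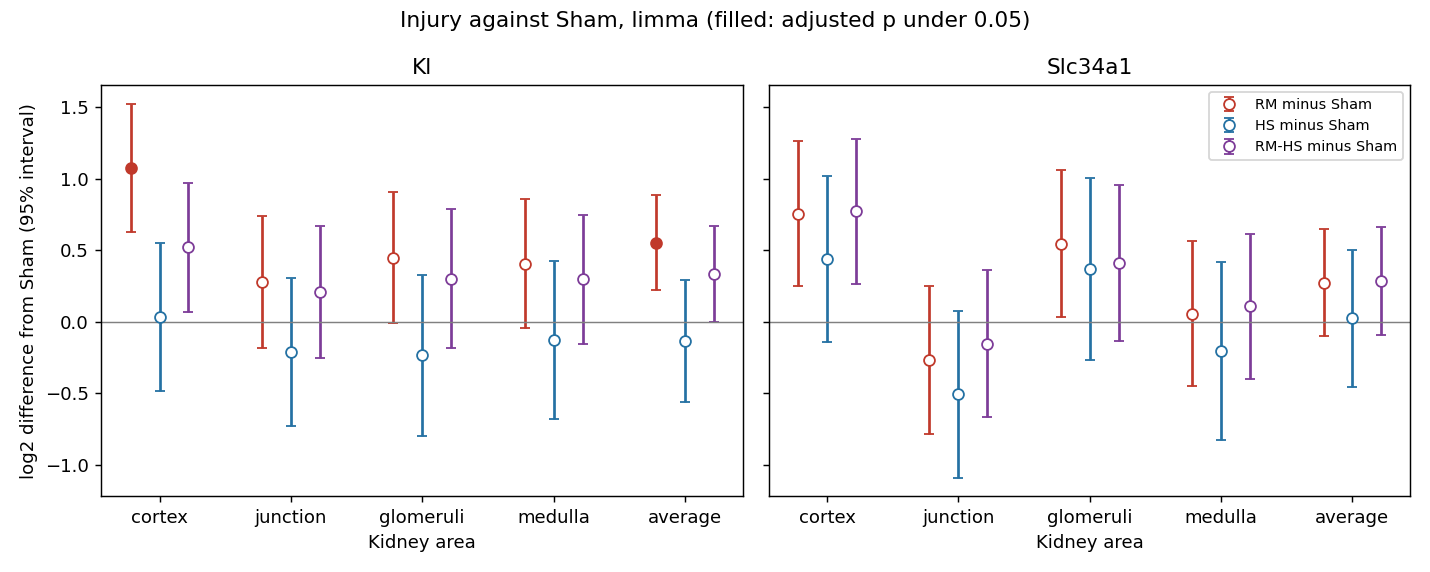
Log2 differences from Sham (limma, 95% intervals) of Kl and Slc34a1 in each area and as the average of 4 areas, for RM, HS and RM-HS; filled points passed an adjusted p of 0.05. For Kl the cortical (1.08) and average (0.55) values of RM are filled, and no Slc34a1 point is.

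Sums of segment markers are set beside these values. Of 10 proximal tubule markers, 7 were measured. Their summed signal in cortex was 812 to 2217 in Sham (median 1050), 997 to 2427 in RM (2056), 732 to 5113 in HS (1165) and 972 to 3186 in RM-HS (1932). Of 6 distal and connecting tubule markers, Slc12a3, the thiazide-sensitive cotransporter, and Klhl3, a regulator of it, were measured. They summed to 176 to 382 in Sham cortex (median 261), 116 to 707 in RM (265), 209 to 518 in HS (215) and 137 to 321 in RM-HS (192). The RM ranges overlapped those of Sham for both lists. In deeper areas RM held lower sums of other segments: 6 loop of Henle markers summed to 399 to 579 at the junction against 710 to 1144 in Sham, and to 769 to 1229 in medulla against 1534 to 3562, without overlap. How many single genes part in this way was not counted. HS and RM-HS also had lower medians of this sum than Sham, at 630 and 548 against 1017 at the junction and 1488 and 1391 against 2640 in medulla. Slc12a1 weighs most in the medullary sum, with a Sham mean of 1280. Collecting duct markers summed to 84.9 to 124 at the RM junction against 138 to 213 in Sham, and to 158 to 275 in medulla against 197 to 656. The proximal tubule sum at the junction was 2808 to 3796 in RM against 2063 to 3954 in Sham. Its measured members went both ways there, and none was called. Their log2 differences from Sham were 0.21 for Slc7a13, 0.15 for Slc5a2 and 0.04 for Gatm. Below 0 were Slc22a6 (-0.62 ± 0.30, limma adjusted p = 0.307), Slc22a8 (-0.33), Cubn (-0.13) and Miox (-0.12). The sum therefore does not stand for each member. The part of segment content in the Kl and Slc34a1 results was not tested. Klhl3 and Slc12a3 were not called in the RM average (-0.24 ± 0.15 and -0.02 ± 0.19). In RM cortex they went opposite ways, also without a call. Klhl3 was at -0.54 ± 0.20 (limma adjusted p = 0.109) and Slc12a3 at 0.27 ± 0.25 (adjusted p = 0.708). Their cortical sum therefore does not stand for each of them. Reads per cortical ROI were 225787 to 697411 as run medians in Sham and 761656 to 1224337 in RM, and the part of depth was not tested either.

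**Figure D4:**
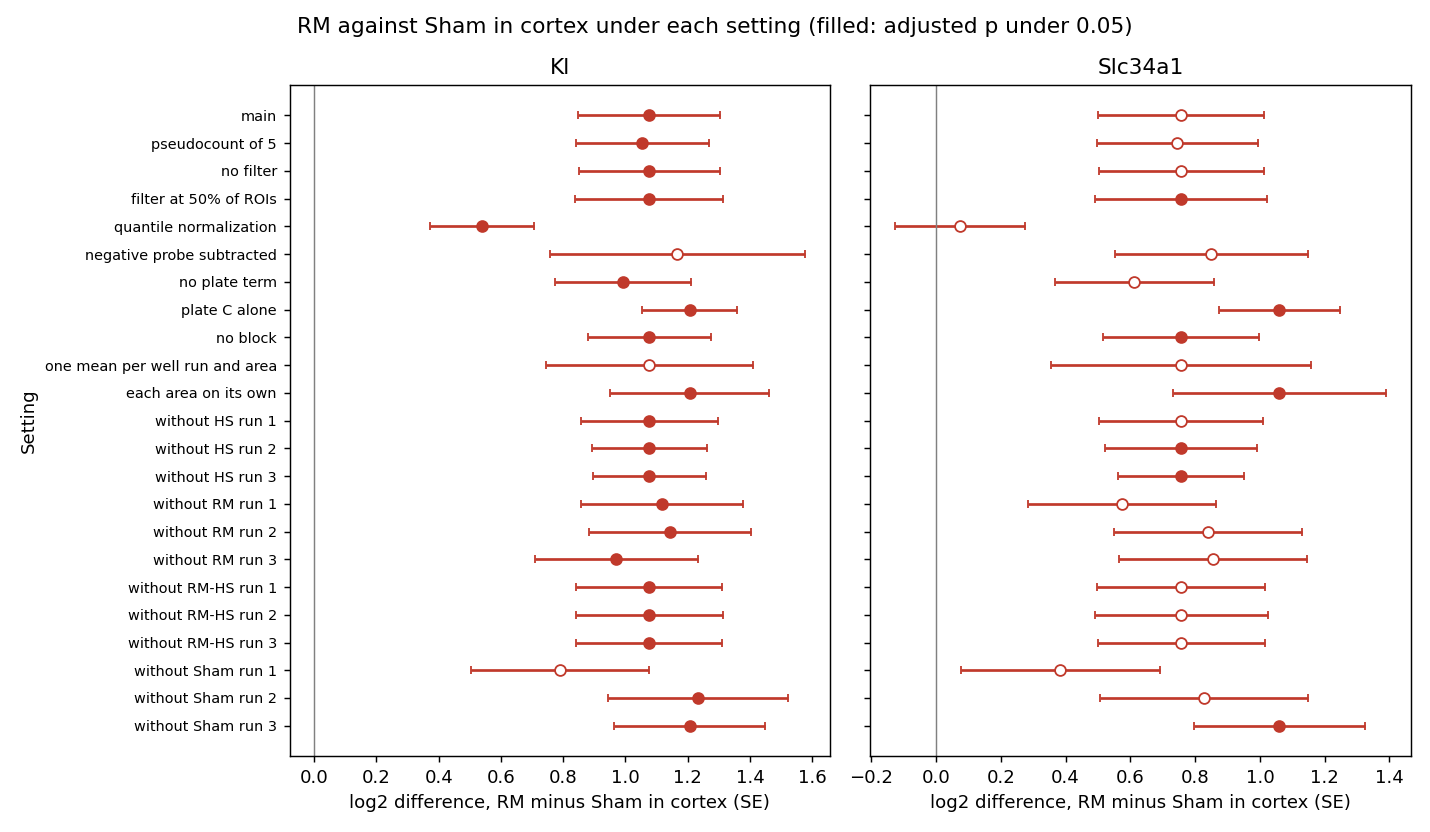
RM minus Sham in cortex for Kl and Slc34a1 under each analysis setting (log2 difference, bars ± SE; filled points passed an adjusted p of 0.05). Kl stays above 0 throughout, from 0.54 to 1.23, and Slc34a1 runs from 0.07 under quantile normalization to 1.06.

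HS alone called neither gene in any area or in the average. Kl in HS cortex was 85.7, 129 and 361 (193 ± 116), at the junction 75.7, 82.4 and 100.2 (82.6 ± 7.50), in glomeruli 9.69, 58.2, 64.6, 81.4 and 105 and in medulla 72.7, 87.1 and 96.9 (85.7 ± 8.58, n = 6). With the plate term, the log2 differences from Sham were 0.04 ± 0.26 for cortex, -0.21 ± 0.26 for the junction, -0.24 ± 0.29 for glomeruli and -0.13 ± 0.28 for medulla, and -0.13 ± 0.22 in the average (95% interval -0.56 to 0.29; limma adjusted p = 0.999; 0.17% of genes called). By area, 0.0793%, 0.283%, 9.52% and 0.374% of genes were called in HS, from cortex to medulla. Slc34a1 in HS cortex was 193, 278 and 1124 (536 ± 410), and at the HS junction 107, 189 and 379 (207 ± 80.9). It was 58.2, 58.2, 128, 213 and 302 in glomeruli and 27.1, 52.3 and 72.7 in medulla (50.8 ± 19.7, n = 6). Its average difference was 0.02 ± 0.24 (95% interval -0.45 to 0.50, adjusted p = 0.999), with 0.44 for cortex, -0.51 for the junction, 0.37 for glomeruli and -0.20 for medulla. The F test between areas passed for Slc34a1 (adjusted p = 0.0314; 13.6% of genes called) and not for Kl (adjusted p = 0.850).

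HS run 3 carried the wide spread of the HS cortex. Its 3 cortical ROIs held Kl at 324, 342 and 361 and Slc34a1 at 1124, 1050 and 1060, above every other HS ROI. Mean Kl was 132 in run 1, 103 in run 2 and 342 in run 3, and mean Slc34a1 was 311, 220 and 1078. In the same run the proximal tubule marker sum averaged 4458 against 1358 and 848, the distal marker sum 432 against 218 and 210, the loop of Henle sum 908 against 520 and 463, the collecting duct sum 676 against 247 and 253, and the median depth was 1320435 reads against 403314 and 341900. The macrophage sum (342 against 238 and 195) and the fibroblast and smooth muscle sum (294 against 189 and 150) were also highest in run 3, while the podocyte sum (144 against 182 and 179) and the endothelial sum (125 against 132 and 138) were lowest. The part of these in the run 3 values was not tested. Run 3 held no medullary ROI. Without it, the cortical difference from Sham was -0.49 for Kl (limma adjusted p = 0.847) and -0.24 for Slc34a1 (adjusted p = 0.999), the Slc34a1 average was -0.44 (adjusted p = 0.0879, against 0.02 with all runs), and the F test of Slc34a1 was lost (adjusted p = 0.497). That F test was also lost without Sham run 1 (0.234) or Sham run 2 (0.0966), with the negative probe subtracted (0.0664) and with run means (0.598). Without Sham run 3, on which the plate term rests, the HS difference of Slc34a1 in cortex was 1.18 (adjusted p = 0.00135) and in glomeruli 0.79 (adjusted p = 0.0372), with HS and plate E then not to be told apart.

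In RM-HS kidney neither gene was called with all groups in the model, where the share of genes called was 3.78% for cortex, 6.15% for the junction, 6.62% for glomeruli and 4.5% for medulla. Kl in cortex was 144, 192 and 267 (198 ± 43.4), with 9 of 9 ROIs above the Sham mean of log2(signal + 1). The lowest of them lay under the Sham mean signal of 148. The log2 difference of Kl from Sham was 0.52 ± 0.23 (limma adjusted p = 0.287), and 0.65 and called on plate C alone (adjusted p = 0.00104). It was 0.21 ± 0.23 at the junction, 0.30 ± 0.25 in glomeruli, 0.30 ± 0.23 in medulla and 0.33 ± 0.17 in the average (adjusted p = 0.322; 6.83% of genes called). Its signal was 76.5, 92.3 and 109 at the junction (n = 8), 36.3, 70.5 and 90.9 in glomeruli (n = 6) and 84.5, 111 and 116 in medulla. With medulla fitted on its own Kl was called there (0.36, adjusted p = 0.0444). The average passed on plate C alone (0.33, adjusted p = 0.00547), without the run block (adjusted p = 0.0180) and without HS run 3 (adjusted p = 0.0273). Slc34a1 in cortex was 278, 334 and 569 (404 ± 123), also with 9 of 9 ROIs above the Sham mean of log2(signal + 1). The lowest of these lay under the Sham mean signal of 289. Slc34a1 differed from Sham by 0.77 ± 0.26 (adjusted p = 0.0698). On plate C alone it differed by 1.08 and was called, and under quantile normalization by 0.24. It was also called without HS run 2 (adjusted p = 0.0308), HS run 3 (0.00327), RM-HS run 1 (0.0362) or Sham run 3 (0.00371). At the junction it was 135, 172 and 395 (196 ± 82.4, n = 8; -0.15 ± 0.26), in glomeruli 72.7, 83.0 and 145 (n = 6; 0.41 ± 0.28) and in medulla 45.6, 53.7 and 58.5 (0.11 ± 0.26), and its average was 0.28 ± 0.19 (adjusted p = 0.526).

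In the direct comparisons of injury groups given here, neither Kl nor Slc34a1 was called with all runs in the model. RM-HS minus RM was -0.22 ± 0.15 for Kl (95% interval -0.52 to 0.08, limma adjusted p = 0.999) and 0.01 ± 0.17 for Slc34a1 (-0.33 to 0.35), where 0.227% of genes were called. In cortex Kl lay lower in RM-HS than in RM (198 ± 43.4 against 289 ± 50.3), with a log2 difference of -0.55 ± 0.22 (adjusted p = 0.9999). RM-HS minus HS was 0.47 ± 0.27 for Kl (adjusted p = 0.822) and 0.26 ± 0.31 for Slc34a1 (adjusted p = 0.998), where 1.09% of genes were called. Without HS run 3 both of these were called, at 0.71 (adjusted p = 0.00415) and 0.73 (adjusted p = 0.00663). RM minus HS in cortex was 1.04 ± 0.31 for Kl (adjusted p = 0.0813; 1.03% called). The interaction, which asks whether RM-HS departs from the sum of the separate injuries, was -0.09 ± 0.26 for Kl and -0.01 ± 0.30 for Slc34a1, with 95% intervals of -0.61 to 0.44 and -0.60 to 0.57 (0.125% of genes called).

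Ordered by mean signal over the 16 groups, Kl led in the 4 cortical groups (RM, RM-HS, HS, Sham) and ended in the 4 glomerular ones. Of its 15 steps between neighbours, 1 exceeded the larger SD of the pair, that from RM cortex to RM-HS cortex. Slc34a1 was ordered cortex, junction, glomeruli and medulla without exception over the 16 groups, led by HS cortex. Of its 15 steps, 1 exceeded the larger SD, from Sham glomeruli to Sham medulla.

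The rest of the phosphate and klotho pathway was read in lists, as counts of members called in the average over areas; medians are set beside those of all genes (-0.06 in RM, -0.03 in HS, -0.02 in RM-HS). With the signal as scaled by the authors, 7.52% of all genes were called higher in RM and 5.99% in RM-HS. List calls under another scaling, here and below, have no such share of all genes beside them. Among all genes called in the RM average, a larger part was lower under quantile normalization, as given above. Of 6 phosphate transporters, 4 were measured, and in RM 1 rose: Slc34a2 by 0.77 ± 0.19 (limma adjusted p = 0.00118), with 0.08 for Slc34a3 and -0.15 for the phosphate exporter Xpr1 (list median 0.18). In RM-HS none was called (list median 0.18; Slc34a2 0.49 ± 0.19, limma adjusted p = 0.114, and 0.48 and called under quantile normalization). Of 9 genes of the brush border scaffold and PTH signalling, 6 were measured. In RM, 2 rose: Ezr (ezrin, which ties membrane proteins to actin) by 1.12 ± 0.15 and Gnas (the stimulatory G protein subunit) by 0.75 ± 0.13. In RM-HS 3 rose, Ezr by 1.24 ± 0.15, Slc9a3r1 (NHERF1, a scaffold that binds NaPi-IIa) by 0.64 ± 0.18 and Gnas by 0.58 ± 0.13. List medians were 0.28 and 0.31. The value for Gnas was lower under quantile normalization (0.25 in RM, adjusted p = 0.0461, and 0.23 in RM-HS, adjusted p = 0.0979), where Pth1r, the PTH receptor, was called lower (-0.46 in RM and -0.49 in RM-HS).

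Of 9 genes of the klotho family and its receptors, 6 were measured, and Kl alone of them was called in RM (list median -0.02). That was so only with the signal as scaled by the authors among the scalings tried: under quantile normalization Kl and Fgfr1 were called higher and the receptor Fgfr3 lower (0.31, 0.55 and -0.36; list median 0.04), and with the negative probe subtracted Fgfr1 was called (limma adjusted p = 0.0167) and Kl was not. Fgfr1, the main partner of klotho, rose in RM-HS by 0.56 ± 0.17 (limma adjusted p = 0.0162) and had 0.46 ± 0.16 in RM (adjusted p = 0.0600). Among 7 measured genes of 8 that respond to FGF23 and other activators of the ERK kinase, 4 rose in RM: Egr1, an immediate early transcription factor, by 1.16 ± 0.18, Dusp6, an ERK phosphatase, by 0.69 ± 0.17, and the feedback inhibitors Spry4 by 0.37 ± 0.13 and Spred1 by 0.36 ± 0.12 (list median 0.37). In RM-HS 2 rose, Egr1 by 0.91 ± 0.18 and Dusp6 by 0.52 ± 0.17. Many other stimuli move these genes. With the negative probe subtracted, Spry4 in RM (limma adjusted p = 0.105) and Dusp6 in RM-HS (adjusted p = 0.0822) were not called, and under quantile normalization Spry1 was also called higher in RM (0.43) and Spry2 lower in RM-HS (-0.55). The klotho shedding proteases (2 of 3 measured), vitamin D handling (3 of 6) and calcium handling (2 of 8) had no call in RM, HS or RM-HS with the signal as scaled by the authors; their members of lowest p are given without a call. Under quantile normalization both calcium genes were called lower in RM (list median -0.33; Casr -0.34, limma adjusted p = 0.0244; Slc8a1 -0.32, adjusted p = 0.0430) and Slc8a1 in RM-HS (-0.35, adjusted p = 0.0270). Among the proteases, Bace1 was at -0.18 and Adam10, which cuts klotho, at -0.02 in RM, and at -0.28 and -0.08 in RM-HS. Cyp24a1, the vitamin D 24-hydroxylase, was at -0.24 and Rxra, a partner of the vitamin D receptor, at -0.09 in RM, and at -0.10 and -0.20 in RM-HS. Casr, the calcium-sensing receptor, was at -0.36 and Slc8a1, a sodium-calcium exchanger, at -0.17 in RM, and at -0.16 and -0.22 in RM-HS.

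In HS none of the 10 lists had a call. The lowest limma adjusted p was 0.824, for Rxra at -0.36 ± 0.16 and Gatm, of creatine synthesis, at 0.61 ± 0.27. Casr was at -0.45 ± 0.20 and Kcnj16 at -0.46 ± 0.21. The other members of lowest p lay between -0.38 (Aqp1, a water channel) and 0.25 (Spry4): among them were Slc34a2 at -0.21, Xpr1 at 0.12, Pth1r at -0.27, Gnas at -0.22, Fgfr4 and Fgfr2 at -0.25, Spry2 at -0.26, Klhl3 at -0.26, Bace1 at 0.13, Adam10 at 0.09, Cubn at 0.10, Slc8a1 at 0.06, Aadat at 0.21 and Slc22a13 at 0.15.

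Segment lists showed few calls. None of 7 measured distal tubule genes of 14 was called in the RM average (list median -0.17), with Stk39 at -0.39 ± 0.13 (limma adjusted p = 0.0514) and Wnk1 at 0.46 ± 0.16 (adjusted p = 0.0545), or in RM-HS (list median -0.22), with Kcnj16 at 0.33 ± 0.17 and Stk39 at -0.26 ± 0.14. Under quantile normalization 1 was called higher and 2 lower in RM (Wnk1 0.41, Stk39 -0.47, Slc8a1 -0.32) and 2 lower in RM-HS (Stk39 -0.35, Slc8a1 -0.35). With the negative probe subtracted, Wnk1 alone of the 7 was called in RM. Of 18 convoluted proximal tubule genes, 0 were called in the RM average (list median 0.11; Pck1, of gluconeogenesis, -0.72 ± 0.26, adjusted p = 0.0646; Slc4a4 0.46 ± 0.18) and 2 rose in RM-HS, Ass1 by 0.53 and Slc4a4, the basolateral bicarbonate cotransporter, by 0.54. Under quantile normalization 2 were called lower in RM (Pck1 -0.92, and Slc6a19, a neutral amino acid transporter, -0.27), and 3 were higher and 1 lower in RM-HS (Pck1 -0.63); with the negative probe subtracted Pck1 alone was called lower in RM. Slc3a1, of cystine transport in the straight segment, rose in RM by 0.57 ± 0.18 (limma adjusted p = 0.0283), and was at 0.03 under quantile normalization, where Slc7a13 (-0.37) and Slc6a18 (-0.31) were called lower. In RM-HS no gene of that list was called, with Cyp2e1 at 0.50 ± 0.18 and Slc3a1 at 0.37 ± 0.18, and under quantile normalization Cyp2e1 was called higher (0.45) and Slc6a18 lower (-0.35). In RM cortex, of the 60 distinct genes of the 10 lists that were tested, 9 were called higher and 0 lower: Kl, Ezr, Gnas, Egr1, Kcnj16, Slc4a4, Gatm, Slc13a3 and Slc3a1, where 5.27% of all genes were called higher. Under quantile normalization 12 were called higher and 7 lower, among the latter Pth1r (-0.74), Spry2 (-0.72), Slc8a1 (-0.67), Cyp24a1 (-0.67) and Klhl3 (-0.54). Among all genes called in RM cortex, a larger part was also lower under that scaling. These lower calls are therefore not shown to be particular to the lists. With the negative probe subtracted, 6 list genes were called higher and 0 lower. Kcnj16, a basolateral potassium channel of the tubule, rose by 0.92 ± 0.22 and Slc13a3, a dicarboxylate cotransporter of the proximal tubule, by 1.16 ± 0.24, and both were also called under quantile normalization (0.64 and 0.83). Of the others, Gnas, Slc4a4, Gatm and Slc3a1 were not called there.

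The genes whose pattern was most like each of the 2 were sought over the 16 group means of log2 signal, as a description. For Kl these were Abcc4, an efflux pump (r = 0.97), Kcnj16 (0.93), Polr3g, Shroom4, Plekha1, Smtnl2, Trim32 and Slc22a23 (0.90 to 0.89). Over the 131 single ROIs their r fell to 0.38 to 0.75, and 1 of the 8 stayed among the 8 highest, Kcnj16 with r = 0.75. Galnt1, Gnai2 and Gpc1 ran most against Kl (-0.80, -0.79 and -0.74). For Slc34a1 the nearest were Slc13a3 (r = 0.99), Spp2, Slc22a6, the basolateral organic anion transporter, Dcxr, Acmsd, Aass, Calml4 and Gatm, the last at 0.95. Over single ROIs Slc13a3 again ranked 1 with r = 0.94, and 5 of the 8 were shared. Ifitm2, Hnrnpa1 and Srsf3 ran most against Slc34a1 (-0.94, -0.93 and -0.92). All these values share the 16 groups, their depth and the 4 areas.

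Kl and Slc34a1 correlated over the 16 means with r = 0.59, and Slc34a1 ranked 1717 of 8826 genes in likeness to Kl. Within areas the relation was found in cortex, where r over ROIs was 0.74 (n = 36) and, without HS run 3, 0.68 (n = 33). It was 0.00 at the junction (n = 34), 0.33 in glomeruli (n = 28) and -0.10 in medulla (n = 33). In cortex Kl had r = 0.86 with Kcnj16, 0.54 with Slc12a3 and -0.27 with Klhl3. In that order its r was -0.07, 0.03 and -0.15 at the junction, -0.09, 0.24 and -0.23 in glomeruli and 0.60, -0.51 and 0.09 in medulla. In cortex Slc34a1 had r = 0.92 with Slc13a3, 0.95 with Slc22a6 and 0.88 with Slc5a2, the glucose cotransporter of the early proximal tubule. At the junction Slc34a1 kept 0.63 with Slc13a3 and 0.72 with Slc22a6, and had -0.10 with Slc5a2. ROIs of a run, an injury and a plate share their source, so that these r carry no p.

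**Figure D5:**
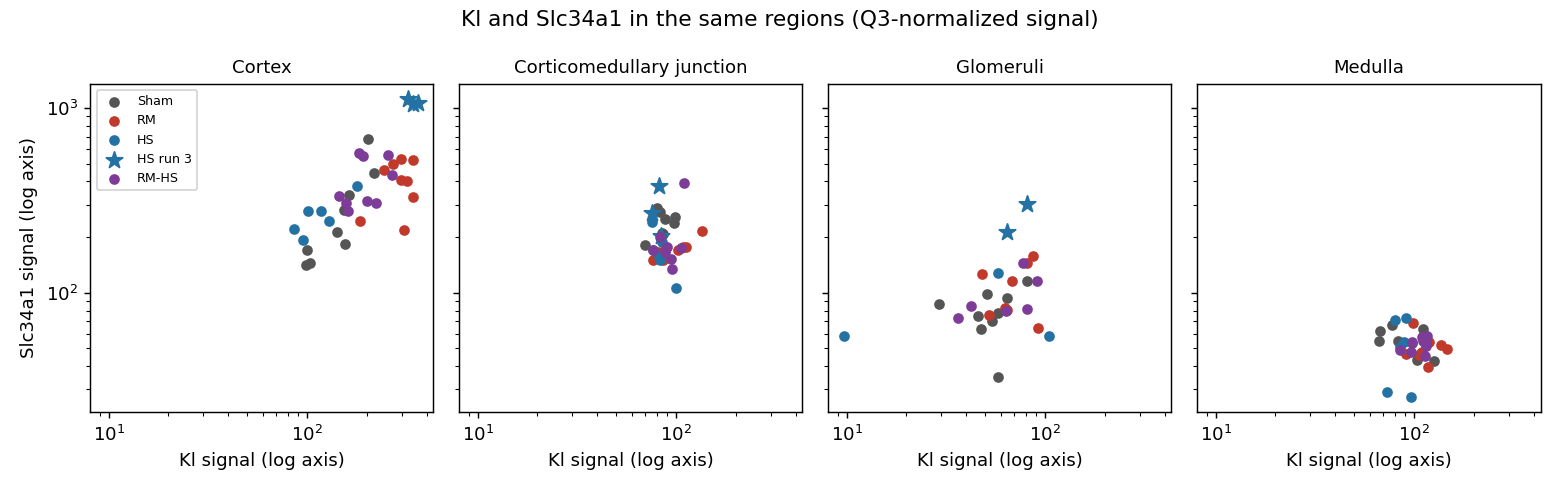
Kl against Slc34a1 signal (both Q3-normalized, log axes) in each ROI, by area, coloured by injury group, with HS run 3 as stars. In cortex both rise together (r = 0.74 over 36 ROIs), with HS run 3 at the upper right, and at the junction there is no such relation (r = 0.00).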

How the data were processed

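GeoMx probes of the mouse transcriptome were read out in 132 ROIs of rat kidney, per the labels' protocols, by NovaSeq sequencing. Deposited values hold signal that the authors had scaled to a common upper quartile (58.1573 in every ROI). Software: not given in the sources used here. The submitters' processing notes name the human builds GRCh38 and hg38, with no role. The values of each ROI were whole multiples of 1 step (largest deviation 3.06e-10), taken as 1 read and used for depth only; totals were 17894 to 2305964 reads.

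Genes entered the fit if 10% of ROIs or more held over 2 times their negative probe (8827 of 9271). In limma 3.58.1 (R 4.3.3, statmod 1.5.0), log2(signal + 1) of 131 ROIs was fitted with 16 means of injury and area, a plate term and random effects of well runs (duplicateCorrelation, 0.132), with eBayes (trend) and Benjamini-Hochberg adjustment over all genes. The plate term was 0.26 ± 0.22 for Kl and 0.43 ± 0.25 for Slc34a1. An F test compared effects between areas. The code of the fit was run on simulated data with planted differences, drawn with correlated runs and without a plate effect. That run does not show how well the real data meet the model.

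Kl and Slc34a1 and the 10 pathway lists were chosen with earlier results of these data known. From each list, up to 4 called members with the largest change in the average, or else up to 2 of lowest p, are named. Genes named for a single area or under another scaling, and tubule markers correlated within areas, were chosen after their values were seen. Likeness took the 8 highest and 3 lowest correlations. Alternatives were another pseudocount (5), no filter or a 50% filter, quantile normalization, subtraction of the negative probe, no plate term, single plates, no block, run means, areas fitted apart, each run left out and, added after the values were seen, Sham run means paired by run.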

Additional observations from a re-analysis of the deposited data

Results flagged for a closer look

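Of 32 groups of ROIs tested for a single extreme value, 3 had one, and chance gives about 1 in 20. At the HS junction the highest Kl ROI was 100.2 and the nearest 84.7. At the RM junction the highest Slc34a1 ROI was 215 and the nearest 176, and at the RM-HS junction they were 395 and 199.8. For Slc34a1, the RM effect (limma F test adjusted p = 0.0274) and the HS effect (adjusted p = 0.0314) differed between areas.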

How the results depend on the processing

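A test on recovered read counts, planned as an alternative, was not run. Injury groups could not be paired, because no label links their replicates. Areas share well runs: with Sham run means and the run as a replicate block, chosen after seeing the data, Kl gave junction minus cortex -0.75 (adjusted p = 0.0209) and medulla minus cortex -0.64 (0.0467), and of the 12 Sham values Slc34a1 medulla minus glomeruli alone lost its call (adjusted p = 0.222). All values are log2 differences or adjusted p of limma's F test between areas; the cause of each change was not tested. Of 1166 values under alternatives 1022 kept direction and call, and 62 changed sign, none of them called before or after. Fitted area by area, Kl HS cortex was -0.22, and Slc34a1 HS cortex -0.17, RM medulla -0.22, HS medulla 0.090 and RM-HS medulla -0.17. With the negative probe subtracted, Kl gave RM average 0.71, HS average 0.060, HS medulla 0.029, Sham junction minus cortex -0.89 and medulla minus cortex -0.66, and Slc34a1 RM medulla -0.015, RM-HS medulla -0.092, RM-HS minus RM -0.039 and HS F 0.0664. Without the block, Kl RM-HS average was 0.34 (adjusted p = 0.0180), and Slc34a1 HS average -0.034, interaction 0.055 and RM F 0.111. Without the plate term, Kl HS average was 0.038 and HS medulla 0.051, and Slc34a1 RM medulla -0.089, HS medulla 0.10, RM-HS medulla -0.037 and RM-HS minus HS -0.18. With run means, Kl RM average was 0.55 (adjusted p = 0.217), Sham junction minus cortex -0.75 and medulla minus cortex -0.64, and Slc34a1 HS average -0.022, interaction 0.057, RM F 0.875 and HS F 0.598. On plate C alone, Kl RM-HS average was 0.33 (adjusted p = 0.00547), and Slc34a1 RM medulla -0.22 and RM-HS medulla -0.17. On plate E alone, Kl HS cortex was -0.22, and Slc34a1 HS cortex -0.17 and HS medulla 0.42. With a pseudocount of 5, Kl RM F was 0.0492. Under quantile normalization, Kl HS cortex was -0.32 and HS glomeruli 0.083, and Slc34a1 RM average -0.032, RM medulla -0.024, HS average -0.0075, RM-HS medulla -0.0051, interaction 0.086, Sham junction minus cortex -0.77 and RM-HS F 0.0268. Without HS run 3 and Sham run 3 together, chosen after seeing the data, Kl HS cortex was -0.10, HS medulla 0.052, Sham junction minus cortex -0.52 and medulla minus cortex -0.57, and Slc34a1 HS average -2.8e-04 and Sham junction minus cortex 0.17. Over the 12 runs left out in turn, Kl ranged in RM average from 0.39 to 0.72, RM-HS average 0.17 to 0.50, HS average -0.38 to 0.12, HS cortex -0.49 to 0.42, HS glomeruli -0.56 to 0.42, HS medulla -0.27 to 0.20, RM-HS minus HS 0.21 to 0.71, interaction -0.34 to 0.16, RM F 0.0129 to 0.417, Sham junction minus cortex -0.97 to -0.52, medulla minus cortex -0.70 to -0.57 and medulla minus junction -0.052 to 0.27. Slc34a1 ranged in HS average from -0.44 to 0.46, HS cortex -0.24 to 1.18, HS glomeruli -0.28 to 0.79, HS medulla -0.47 to 0.15, RM medulla -0.22 to 0.26, RM-HS medulla -0.17 to 0.31, RM-HS minus RM -0.084 to 0.091, RM-HS minus HS -0.18 to 0.73, interaction -0.45 to 0.45, Sham junction minus cortex -0.39 to 0.17, and F adjusted p of 8.58e-04 to 0.439 for RM, 0.00248 to 0.497 for HS and 0.00367 to 0.488 for RM-HS. Without Sham run 3 the plate term was dropped. Genes called in the averages numbered 733 in RM, 15 in HS and 603 in RM-HS, and over all alternatives 294 to 2967, 0 to 1156 and 193 to 1984. Depth limits the glomerular values most: over the 28 glomerular ROIs Kl rested on 1 to 32 reads and Slc34a1 on 3 to 57. The median Kl reads there were 10 in Sham and 20 in RM. In glomeruli 2 Kl values rest on 1 read each, the Sham one in an ROI of 17894 reads.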
